A study of Dugesia japonica with 15 samples.

Results

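Of the 38792 rows of a gene expression table from the planarian *Dugesia japonica*, 57 genes were lower after RNA interference (RNAi) against DjTcf4 than after control RNAi both in intact animals and in trunk fragments at 5 days post amputation (5 dpa). They were chosen from the measured values themselves. The rule took the 28999 rows whose ID starts with DJKW, kept the 11494 with a median of at least 5 CPM (counts scaled to the library's total) in control intact animals, and required a log2 ratio of DjTcf4 RNAi to control RNAi of -0.4 or less at each stage, with 0.5 CPM added to each group median. Because both RNAi comparisons made the selection, they are described here with no p-value. The comparisons of 5 dpa with intact animals use the same libraries, so their p-values for members are descriptive. The 5 CPM floor was set in control intact animals alone and can favour falls in control.

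The 4 groups were trunk fragments at 5 dpa after DjTcf4 RNAi (n = 3, replicates 1, 3 and 4), trunk fragments at 5 dpa after control RNAi (n = 4), intact animals after DjTcf4 RNAi (n = 4) and intact animals after control RNAi (n = 4). All had undergone RNAi, and each library came from poly(A) RNA of a group of animals. Nothing in the labels ties replicates to separate treatments or groups of animals, so p-values measure only the spread between these libraries, which may be partly technical. In whole animals and fragments, fewer cells that express a gene and less RNA per cell cannot be told apart, nor can regeneration and the difference between a trunk and a whole body.

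TCF proteins are DNA-binding partners of β-catenin in canonical Wnt signalling: with β-catenin they activate target genes, and without it they can act with repressors. In planarians, Wnt and β-catenin signalling specifies the posterior of the body, and regeneration relies on neoblasts, the dividing stem cells that supply new differentiated cells. Expression levels alone do not show whether a gene is bound by a TCF protein. The files pair no row with a gene name, so no role can be given to a member, the row of DjTcf4 is not known, and the knockdown has no check here. Members are called by their rank, and 4 by their ID.

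Totals ranged from 8136366 to 12224216 counts per library, and the lowest member count in any library was 1. DjTcf4 RNAi intact replicate 2 stood apart from its group. The median member in that library was at a log2 ratio of -1.57 to its control intact median, against -0.60, -0.09 and -0.57 in replicates 1, 3 and 4. Over all 11494 rows the same median lay between -0.05 and 0.05 in every library. The share of those rows below every control intact library was nevertheless 41.9% in replicate 2, against 20.9%, 15.9% and 18.3% in replicates 1, 3 and 4, so that it stood apart over the whole table and not in the members alone. The counts of members are given with and without it. The median intact ratio of the 57 was -0.50 without it, 17 of them then did not meet the rule, and 1 member in place of 3 had an intact ratio of -1 or less.

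The 57 members stood beside 354 rows lower with DjTcf4 RNAi at 5 dpa (3.08% of the 11494) and 612 rows lower in intact animals (5.32%). They made up 0.496% of the rows, 16.1% of those lower at 5 dpa and 9.31% of those lower in intact animals. The 2 comparisons share no library. The product of the 2 shares was 18.8 rows, and 19.9 when taken within 4 equal bins of the control intact level. It is the count that unrelated comparisons would give only if all rows varied alike, which was not tested. The observed count was 3.02 times the product of 18.8. The other sign combinations show how far such a ratio can be read. With the thresholds mirrored, 320 rows were higher at 5 dpa (2.78%), 344 were higher in intact animals (2.99%) and 31 were higher in both (0.27%), against a product of 9.58. Without DjTcf4 RNAi 5 dpa replicate 3, 14 were higher in both, fewer than the product of 21.2. Rows lower in intact animals but higher at 5 dpa numbered 101 (0.879%), against a product of 17.0, a ratio of 5.93. Rows higher in intact animals and lower at 5 dpa numbered 10 (0.087%), against 10.6, and 5 to 19 when a library was left out. The 101 moved by over 1.5 times without DjTcf4 RNAi 5 dpa replicates 1 (52), 3 (219) and 4 (241), DjTcf4 RNAi intact replicates 1 (67) and 2 (58), control intact replicates 2 (59) and 4 (60) and control 5 dpa replicate 3 (168). The ratio of genes lower in both stages was smaller than that of genes lower in intact animals and higher at 5 dpa with all libraries and in each of the 15 cases with 1 library left out, where they ranged from 2.16 to 3.96 and from 4.003 to 5.79. Without DjTcf4 RNAi intact replicate 2, 50 genes met the rule, 3.96 times the product of 12.6, while 58 were lower in intact animals and higher at 5 dpa, 5.08 times the product of 11.4. Of those 50 genes, 40 were among the 57.

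**Figure D1:**
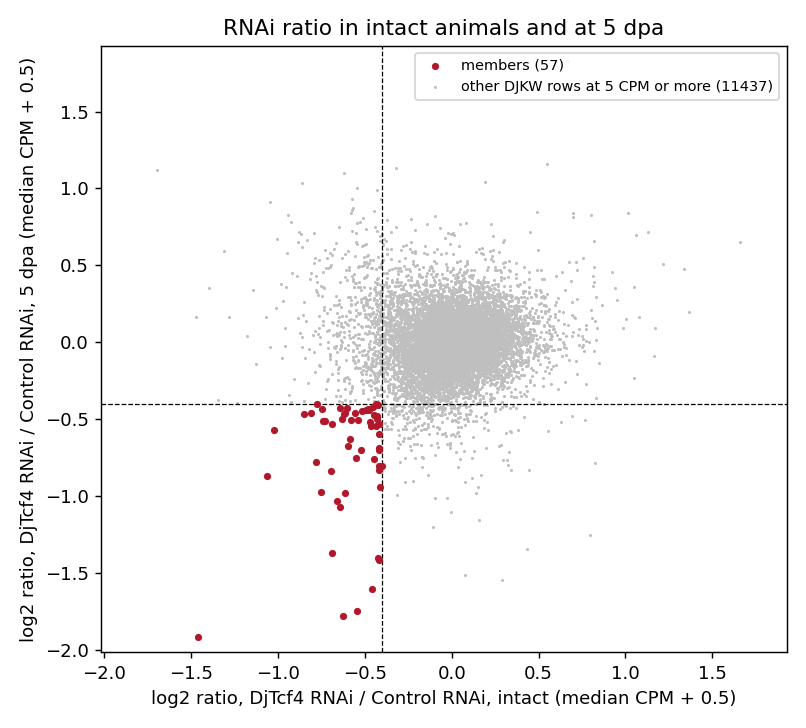
Each point is a DJKW row with at least 5 CPM in control intact animals, by its log2 ratio of DjTcf4 RNAi to control RNAi in intact animals (x axis) and at 5 dpa (y axis), and the dashed lines mark the threshold of -0.4. The 57 members lie in the lower left, most of them close to the lines, with DJKW.51 alone at the far corner (-1.46 and -1.91).

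Most members were modestly lower. The median log2 ratio was -0.54 at 5 dpa (range -1.91 to -0.40) and -0.54 in intact animals (range -1.46 to -0.40), a level 0.686 and 0.687 times that of control. The median over all 11494 rows was 0.01 at both stages. A ratio of -1 or less was reached by 9 members at 5 dpa and by 3 in intact animals, and by 1 member, DJKW.51, at both. At the threshold, the 2 members just inside had larger ratios of -0.4016 and -0.4027, and the 2 rows just outside had -0.3980 and -0.3977. On the level threshold, the least abundant member was at 5.43 CPM in control intact animals, and the most abundant row left out for its level alone was at 4.73 CPM.

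Members were less abundant than the rows they came from. Their median levels were 4.07 CPM with DjTcf4 RNAi at 5 dpa, 7.30 CPM in control at 5 dpa, 10.3 CPM with DjTcf4 RNAi in intact animals and 15.1 CPM in control intact animals, where the median of the 11494 rows was 27.3 CPM. In control intact animals, 14 members (24.6%) reached 50 CPM, against 32.5% of the rows. At 5 dpa the medians of 35 members with DjTcf4 RNAi and of 20 in control were under 5 CPM. Counts with a fractional part, which a table can hold where reads matched several similar sequences and which make a gene's level uncertain, occurred in 13 members (22.8%), against 15.3% of the rows.

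The libraries agreed on these genes to unequal degrees. The summed level of the members was 1366, 1181 and 1089 CPM in the 3 DjTcf4 RNAi libraries at 5 dpa, against 1775, 1944, 1962 and 1981 CPM in the control ones. In intact animals it was 1873, 1510, 2462 and 1835 CPM with DjTcf4 RNAi in replicates 1 to 4, against 2683, 3156, 2850 and 3216 CPM in control. Neither stage showed overlap in this sum, which the most abundant members dominate and which the selection itself lowers. Gene by gene the picture was less even. DjTcf4 RNAi intact replicate 2 held the lowest of its group's values for 41 members and replicate 3 the highest for 41. Replicate 2 was below every control intact library for 51 members, replicates 1 and 4 for 40 and 32, and replicate 3 for 21, which is to be read beside 41.9%, 20.9%, 18.3% and 15.9% of all 11494 rows. At 5 dpa, DjTcf4 RNAi replicates 3 and 4 were below every control for 46 and 49 members and replicate 1 for 20, beside 22.1%, 17.4% and 22.2% of all rows. Replicate 1 held the highest of its group's values for 36 members. The shares of all rows in which a library held the lowest or highest of its group's values were not computed.

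**Figure D2:**
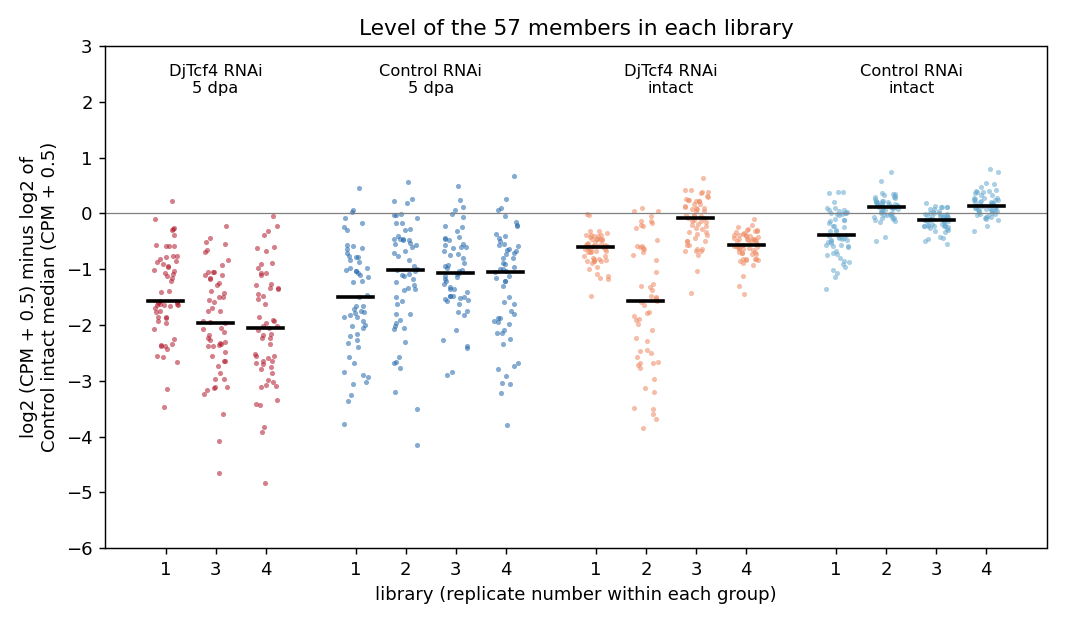
Each point is 1 of the 57 members in 1 library, as log2 (CPM + 0.5) relative to the member's median in control intact animals, and bars are the library medians. DjTcf4 RNAi intact replicate 2 has its median at -1.57, within the range of the 5 dpa libraries, and replicate 3 has its median at -0.09, near the controls.

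All DjTcf4 RNAi libraries lay below all control libraries for 16 members at 5 dpa, where 2.87% of the 11494 rows did so, for 14 in intact animals (1.51%), and for 9 at both stages (0.296%). The selection fixes the direction of these differences and a least size of the ratio of medians. It thereby favours groups that lie apart, so the members and all rows are not alike in this. Without DjTcf4 RNAi intact replicate 2, all RNAi libraries lay below all control libraries for 17 members in intact animals, where 3.11% of the rows did so. When each of the 15 libraries was left out in turn and the rule applied again, 7 of the 57 members met it every time, and 6 of these were among the 9. The number of genes meeting the rule then ranged from 28, without DjTcf4 RNAi 5 dpa replicate 4, to 91, without control 5 dpa replicate 1. Group means in place of medians gave 35 genes, 23 of them among the 57.

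DJKW.51, named after its values were seen, was the member with the lowest mean of both ratios. No change after amputation was called in it, which does not show equal levels. Its median with DjTcf4 RNAi was 14.0 CPM at 5 dpa and 18.7 CPM in intact animals. It was at 14.0, 13.0 and 21.3 CPM with DjTcf4 RNAi at 5 dpa, against 53.4, 61.0, 50.2 and 54.8 CPM in control. In intact animals it was at 18.4, 14.8, 19.1 and 19.0 CPM with DjTcf4 RNAi, against 52.4, 51.3, 52.1 and 61.5 CPM in control. The highest value with RNAi lay far below the lowest control value at each stage, also in the intact library that stood apart. Its log2 fold change after amputation was -0.09 with DjTcf4 RNAi (SE 0.158, edgeR quasi-likelihood adjusted p = 0.723) and 0.09 with control RNAi (SE 0.139, edgeR adjusted p = 0.672).

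DJKW.14394, ranked 2 by the mean ratio and 3 by level, was lowered at both stages and by more at 5 dpa. It was at 49.1, 55.6 and 52.8 CPM with DjTcf4 RNAi at 5 dpa, against 171, 184, 180 and 211 CPM in control. In intact animals it was at 209, 224, 195 and 176 CPM with DjTcf4 RNAi, against 305, 312, 312 and 321 CPM in control. The intact RNAi libraries thus stood near the level of control fragments at 5 dpa, and the RNAi fragments stood below every other library. It fell after amputation, with a log2 fold change of -1.90 with DjTcf4 RNAi (SE 0.127, edgeR adjusted p = 4.3e-08) and -0.67 in control animals (SE 0.110, edgeR adjusted p = 0.000969). Its 2 log2 ratios of RNAi to control, -1.78 at 5 dpa and -0.63 in intact animals, belong to the selection, so their difference was not tested here.

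DJKW.10467, ranked 3 by the mean ratio, was a low-level gene with the same order of groups. It was at 1.32, 0.731 and 1.86 CPM with DjTcf4 RNAi at 5 dpa, against 4.06, 7.50, 6.54 and 4.68 CPM in control, and at 7.89, 5.86, 7.76 and 4.42 CPM with DjTcf4 RNAi in intact animals, against 10.2, 10.05, 10.97 and 8.10 CPM in control. The groups did not overlap at either stage, though 7.89 and 8.10 CPM left little room between them. It fell after amputation, with a log2 fold change of -2.23 with DjTcf4 RNAi (SE 0.316, edgeR adjusted p = 0.000217) and -0.73 in control (SE 0.248, edgeR adjusted p = 0.0343). The call in control ended without control 5 dpa replicate 1, where the adjusted p was 0.0936, and in 4 other alternatives, and the gene did not meet the rule without DjTcf4 RNAi intact replicate 2 (log2 ratio -0.37).

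DJKW.10239 was the 1 member called higher after amputation, and it was called so with either RNAi. It was at 132, 95.9 and 110 CPM with DjTcf4 RNAi at 5 dpa, against 155, 135, 158 and 179 CPM in control. In intact animals it was at 71.9, 39.1, 79.7 and 62.7 CPM with DjTcf4 RNAi, against 112, 107, 113 and 124 CPM in control. RNAi libraries were below control libraries at each stage, and RNAi fragments at 5 dpa lay around the level of control intact animals. Its log2 fold change after amputation was 0.89 with DjTcf4 RNAi (SE 0.165, edgeR adjusted p = 0.00205) and 0.53 in control (SE 0.154, edgeR adjusted p = 0.0164). The rise in control was not called without any 1 of control 5 dpa replicates 1 and 4 and control intact replicates 1, 2 and 3, with adjusted p from 0.0502 to 0.0858.

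**Figure D3:**
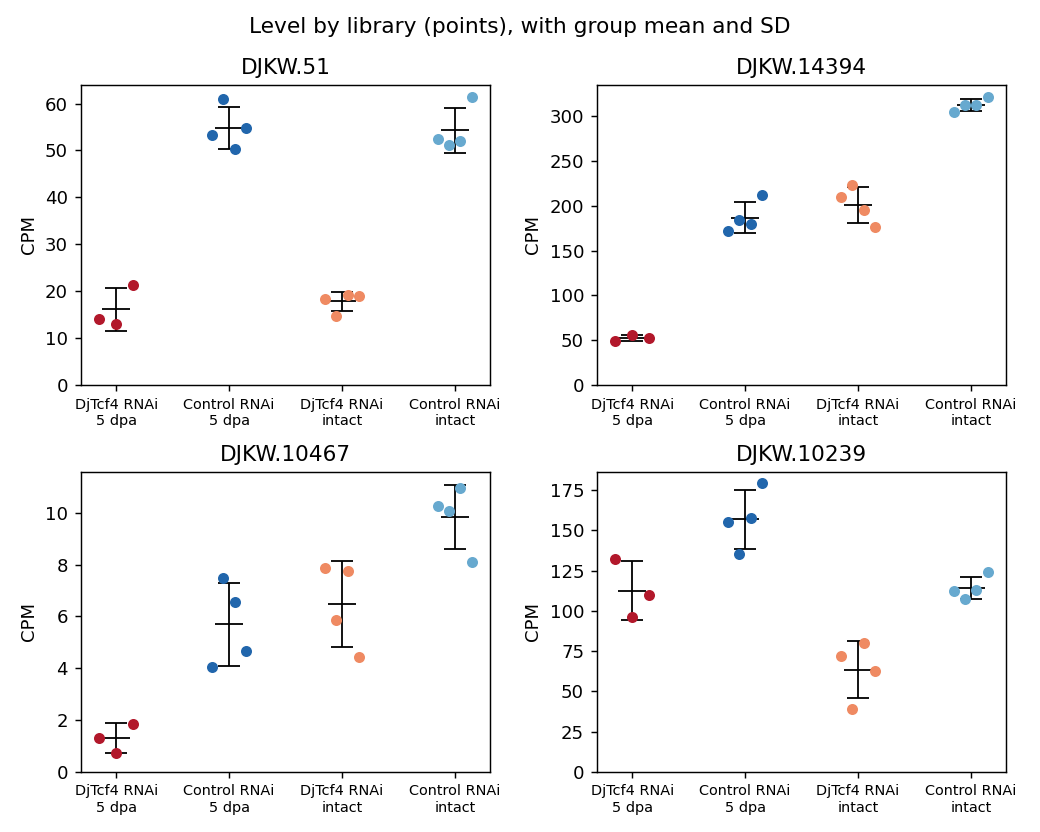
Level in CPM of 4 members in each library (points), with the mean and SD of each group (bars, n = 3 for DjTcf4 RNAi at 5 dpa and 4 for the others). DJKW.51 is far lower with DjTcf4 RNAi than in control at both stages, DJKW.14394 and DJKW.10467 are lowest in RNAi fragments, and DJKW.10239 is higher at 5 dpa than in intact animals with either RNAi.

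Another member with a wider gap at 5 dpa was abundant. The member ranked 5 by the mean ratio was at 34.1, 41.7 and 37.1 CPM with DjTcf4 RNAi at 5 dpa, against 103, 111, 116 and 134 CPM in control, and at 142, 161, 113 and 116 CPM with DjTcf4 RNAi in intact animals, against 183, 168, 183 and 171 CPM in control. It fell after amputation, with a log2 fold change of -1.79 with DjTcf4 RNAi (SE 0.161, edgeR adjusted p = 1.66e-06) and -0.53 in control (SE 0.140, edgeR adjusted p = 0.0109). The member ranked 7 averaged 5.33 ± 1.81 CPM with DjTcf4 RNAi and 17.3 ± 3.59 CPM in control at 5 dpa (SD, n = 3 and 4), and 21.4 ± 7.80 and 29.3 ± 3.37 CPM in intact animals, where the groups overlapped. The member ranked 8 averaged 3.62 ± 0.749 CPM with DjTcf4 RNAi and 9.43 ± 2.02 CPM in control at 5 dpa, and 16.8 ± 3.61 and 22.0 ± 4.47 CPM in intact animals, again with overlap. The member ranked 7 did not meet the rule without DjTcf4 RNAi intact replicate 2 (log2 ratio -0.21). In all, the log2 ratio was lower at 5 dpa than in intact animals in 33 members and in 52.4% of all 11494 rows. It was lower by at least 0.5 in 7 members, and no member had it at least 0.5 higher at 5 dpa. The rule held both ratios at or below its threshold, so such a gap needed a ratio far below it at either stage. A ratio of -1 or less was found in 9 members at 5 dpa but in only 3 in intact animals. The shares of all rows with such gaps were not computed, so these counts do not show a gap that widened at 5 dpa. The median difference between the 2 ratios was -0.05 over the members and -0.01 over all 11494 rows.

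The member ranked 4 was 1 of the 15 that passed the test in neither comparison after amputation. It was at 2.81, 3.97 and 7.03 CPM with DjTcf4 RNAi at 5 dpa, against 9.85, 10.8, 11.3 and 11.4 CPM in control, and at 3.94, 6.14, 8.42 and 5.15 CPM with DjTcf4 RNAi in intact animals, against 9.89, 10.5, 8.49 and 8.93 CPM in control. Its log2 fold changes after amputation, -0.31 with DjTcf4 RNAi (edgeR adjusted p = 0.481) and 0.27 in control (adjusted p = 0.421), did not pass the test. The members ranked 9 and 10 had larger changes. That ranked 9 averaged 1.27 ± 0.299 CPM with DjTcf4 RNAi and 3.43 ± 1.88 CPM in control at 5 dpa, and 4.19 ± 0.896 and 7.45 ± 1.37 CPM in intact animals, and that ranked 10 averaged 17.4 ± 3.12 and 36.4 ± 6.11 CPM at 5 dpa, and 49.98 ± 13.4 and 74.8 ± 12.6 CPM in intact animals (SD). After amputation in control they fell, with log2 fold changes of -1.07 and -0.97 (edgeR adjusted p = 0.0159 and 0.00338).

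The 2 most abundant members did not change detectably with amputation, and their counts were partly fractional. The first was at 460, 348 and 325 CPM with DjTcf4 RNAi at 5 dpa, against 466, 470, 494 and 430 CPM in control, and at 334, 167, 465 and 317 CPM with DjTcf4 RNAi in intact animals, against 400, 531, 460 and 570 CPM in control. The groups overlapped at both stages, and its counts were fractional in all 15 libraries. The next averaged 259 ± 42.3 CPM with DjTcf4 RNAi and 428 ± 26.7 CPM in control at 5 dpa, and 315 ± 75.6 and 506 ± 85.9 CPM in intact animals (SD). Its groups did not overlap at either stage, though 428 CPM in DjTcf4 RNAi intact replicate 2 nearly reached 433 CPM in control intact replicate 2. This member met the rule without any 1 library, and its log2 fold change after amputation in control was -0.17 (SE 0.174, edgeR adjusted p = 0.47). Of the 7 members that met the rule without any 1 library, DJKW.51 and DJKW.14394 included, that ranked 26 had the smallest spread relative to its mean in 3 of the 4 groups (not in control intact animals). It was at 23.8, 25.8 and 26.3 CPM with DjTcf4 RNAi at 5 dpa, against 36.9, 38.3, 36.3 and 38.0 CPM in control, and at 34.1, 35.7, 34.5 and 33.8 CPM with DjTcf4 RNAi in intact animals, against 50.9, 64.7, 53.3 and 58.0 CPM in control. This member was chosen after its values were seen.

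As a group, the members went down after amputation. With DjTcf4 RNAi, 27 of 57 fell and 1 rose at 5 dpa against intact animals (edgeR, adjusted p under 0.05), that is 47.4% and 1.75% of them. Over all 17094 genes tested 6.67% were lower and 6.81% higher in that comparison, and among the 11494 rows of at least 5 CPM 8.02% were lower and 9.12% higher. The median log2 fold change was -1.26 over the members (range -3.15 to 0.89), against -0.01 over those rows. Leaving out 1 library moved this median of the members to between -1.59 and -0.97. In control animals 41 members (71.9%) fell and 1 rose, against 16.1% lower and 14% higher over all genes tested and 18.5% and 18.4% over the rows of at least 5 CPM. The median was -1.07 there (range -3.60 to 0.53), against 0.06 over the rows, and -1.14 to -0.95 when 1 library was left out. The 27 that fell with DjTcf4 RNAi also fell in control animals. All 57 members passed the filter on low counts, and 15 passed the test in neither comparison.

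These counts, and the p-values of single members, are a description, since every library of both amputation comparisons also entered the rule. The same comparison over the rows that met only part of the rule gives their setting. Of the 555 rows lower with DjTcf4 RNAi in intact animals only, 19.3% were called lower after amputation with DjTcf4 RNAi (median log2 fold change -0.93) and 78.7% in control (median -1.70). Of the 297 rows lower at 5 dpa only, 48.1% were called lower with DjTcf4 RNAi (median -0.85) and 44.1% in control (median -0.53). The 31 genes higher in both stages had 6.45% called lower and 32.3% higher in control. The share that fell in control was thus 71.9% among the members and 78.7% among the rows lower in intact animals only, and this difference was not tested. With the members chosen again and the fit made without DjTcf4 RNAi intact replicate 2, 36 of 50 fell and 1 rose with DjTcf4 RNAi (median log2 fold change -1.12), and the same numbers did in control (median -0.85). Without that library, 43 of the original 57 were called lower with DjTcf4 RNAi and 45 in control, and 15 were called lower with DjTcf4 RNAi without DjTcf4 RNAi 5 dpa replicate 4. The shares of all rows called in these fits are not given here, so the counts do not show a change particular to the members.

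**Figure D4:**
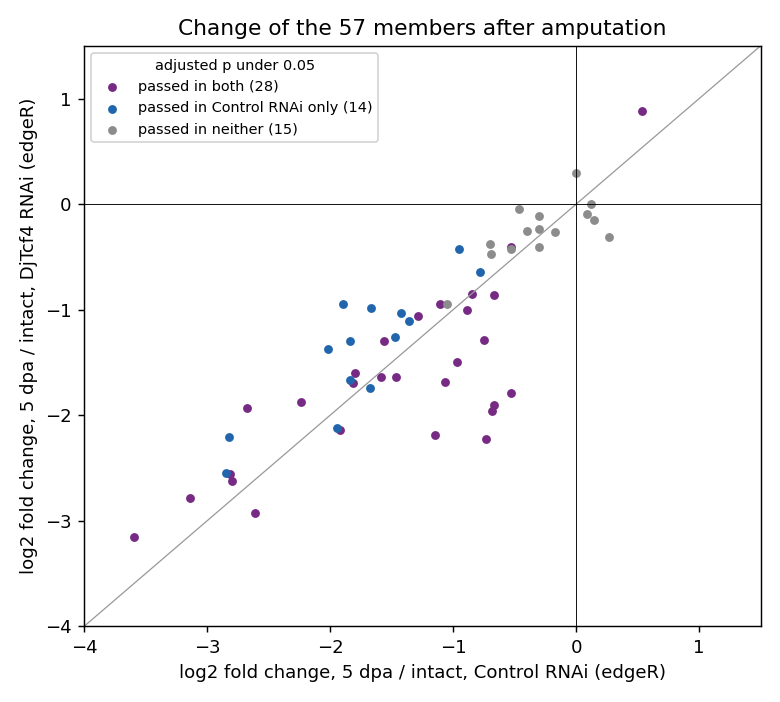
Each point is 1 of the 57 members by its log2 fold change from intact animals to 5 dpa in control RNAi (x axis) and DjTcf4 RNAi animals (y axis), with edgeR calls by colour and the line of equal change in grey. Of the members, 28 passed the test in both, 14 in control only and 15 in neither, and most lie in the lower left.

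The members differed among themselves in a way that went with the size of the fall. A log2 fold change of -2 or less after amputation in control was found in 10, 20 lay between -2 and -1, and 27 above -1. Among the 10, no member had RNAi and control libraries apart at either stage, and DjTcf4 RNAi intact replicate 2 was the lowest of its group for all 10 and no higher than the highest control 5 dpa library for all 10. It was the lowest of its group also for 16 of the 20 and 15 of the 27, and no higher than the highest control 5 dpa library for 16 of the 20 and 21 of the 27. The median coefficient of variation of the 10 was 74.5% in DjTcf4 RNAi and 37.3% in control intact animals. Among the 20, the groups were apart in 2 members at 5 dpa, 3 in intact animals and 1 at both stages. Their coefficients were 57.3% and 22.9%. Among the 27 members with the smallest changes, 14 had the groups apart at 5 dpa, 11 in intact animals and 8 at both stages, and the coefficients were 27.8% and 16.3%. The shares of all rows with falls of these sizes are not given here, so these counts do not show a trait particular to the members. The part of DjTcf4 RNAi intact replicate 2 in the RNAi ratios of the 10 was not tested beyond leaving it out. After that, 9 of the 10, 12 of the 20 and 19 of the 27 still met the rule.

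The member with the largest fall after amputation, ranked 6 by the mean ratio, shows the first kind. It was at 11.4, 4.73 and 4.10 CPM with DjTcf4 RNAi at 5 dpa, against 9.07, 6.86, 17.1 and 8.99 CPM in control. In intact animals it was at 72.3, 8.63, 121 and 52.8 CPM with DjTcf4 RNAi, against 79.3, 196, 120 and 141 CPM in control. The value in DjTcf4 RNAi intact replicate 2 was in the range of the fragments, and RNAi and control libraries overlapped at both stages. It fell after amputation, with a log2 fold change of -3.15 with DjTcf4 RNAi (SE 0.660, edgeR adjusted p = 0.00651) and -3.60 in control (SE 0.586, edgeR adjusted p = 0.0013), with fractional counts in all 15 libraries. The member ranked 12, the fourth most abundant, had values of the same pattern, with 24.4, 17.8 and 14.1 CPM with DjTcf4 RNAi at 5 dpa, against 20.9, 33.9, 30.2 and 23.3 CPM in control. It had 97.4, 18.8, 233 and 119 CPM with DjTcf4 RNAi in intact animals, against 86.1, 273, 206 and 234 CPM in control. Its log2 fold change in control was -2.81 (SE 0.524, edgeR adjusted p = 0.0025).

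After the largest fall, the next 3 in control were in the members ranked 11, 19 and 30 by the mean ratio. With DjTcf4 RNAi they averaged 1.19 ± 1.19, 0.687 ± 0.700 and 0.962 ± 1.003 CPM at 5 dpa, against 8.80 ± 5.30, 4.40 ± 3.42 and 4.78 ± 3.79 CPM in intact animals (SD). In control they averaged 1.72 ± 0.686, 0.874 ± 0.315 and 1.12 ± 0.926 CPM at 5 dpa, against 16.1 ± 4.68, 6.76 ± 2.61 and 8.50 ± 3.56 CPM in intact animals. Their log2 fold changes in control were -3.14, -2.85 and -2.82 (SE 0.537, 0.733 and 0.695, edgeR adjusted p = 0.00164, 0.0115 and 0.00943). With DjTcf4 RNAi they were -2.78, -2.55 and -2.21 (edgeR adjusted p = 0.00934, 0.0574 and 0.0758), so those ranked 19 and 30 were not called there. The 5 dpa groups overlapped in all 3.

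In 45 of the 57 members the group medians had 1 order, from DjTcf4 RNAi at 5 dpa, the lowest, through control at 5 dpa and DjTcf4 RNAi in intact animals to control intact animals, the highest. Of all 11494 rows, 17.0% had this order, but those rows were not held to RNAi below control at either stage, so the shares are not alike. The rule itself put RNAi below control at each stage, so that the place of intact RNAi animals above control fragments was the step it left free. The share for that step among all rows with RNAi below control at both stages was not computed. In the other 12 members, intact RNAi animals stood below control fragments, DJKW.51 and DJKW.10239 among them. Within groups, members varied together more than they did with other rows. The deviations of the libraries from their group means had a median correlation of 0.35 between pairs of members and 0.03 between a member and any other of the 11494 rows (15 libraries, shared by all genes), and 0.33 and 0.04 without DjTcf4 RNAi intact replicate 2. These correlations are a description, since all genes share the libraries and their depth and the members were selected on these same values.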

How the data were processed

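The authors' deposited table holds expected counts, estimated counts per gene that need not be whole (8.23% have a fractional part), in 1 column per library. Bowtie2, HISAT2, RSEM and DESeq2 are listed in the submitters' processing notes, with no role or version. The genome build is not given in the sources used here, nor is the annotation. Columns were matched to samples through the labels. Group medians of CPM over the whole column sum made the rule, and CPM values in the text are on that scale.

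For the change after amputation, counts were rounded to whole numbers and filtered with edgeR's filterByExpr (minimum count 10, minimum total count 15), leaving 17094 genes, and scaled by TMM. Version 4.0.16 of edgeR in R 4.3.3 fitted 1 robust quasi-likelihood model to all 15 libraries, with Benjamini-Hochberg adjustment over all genes and a threshold of 0.05. Standard errors were derived from each log2 fold change and its F statistic and are approximate. The steps were tested on simulated data. The precision of low members is limited by counts down to 1 in a library.

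The members, the rule and the alternatives were chosen with earlier results of these data known. The text names, by rank, the 10 members with the lowest mean of both ratios, the 5 most abundant and the 4 largest falls and rises after amputation, and by ID 2 members that fell, 1 that rose and, outside the rule, DJKW.51. Pathway and cell type lists could not be used, as no row has a name. Alternatives were other scalings and filters, a replicate block, DESeq2 1.42.0, limma 3.58.1, the compared groups alone, other settings of the rule and leaving out each library. Replicate numbers were not taken as pairs, as the criterion used (correlation over 0.1 in every pair) was not met.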

Additional observations from a re-analysis of the deposited data

Results flagged for a closer look

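DJKW.51 was at 61.5 CPM in control intact replicate 4, apart from the 51.3 to 52.4 CPM of the other 3 libraries of that group. The second most abundant member was at 428 CPM in DjTcf4 RNAi intact replicate 2, against 272 to 287 CPM in replicates 1, 3 and 4. By chance about 1 in 20 groups would hold such a value, and 57 sets of 4 libraries were looked at.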

How the results depend on the processing

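The rule was sensitive to its settings and to single libraries, and beyond looser or stricter thresholds and fewer libraries the cause was not tested. With a log2 threshold of -0.3, -0.6 or -1, 156, 10 and 1 genes met it, with a floor of 1 CPM 88, and with group means 35. Leaving out a library gave 28 to 91, and the count moved by over 1.5 times without control intact replicate 4 (37), DjTcf4 RNAi 5 dpa replicates 3 (30), 4 (28) and 1 (88) and control 5 dpa replicate 1 (91). For the members that fell with DjTcf4 RNAi (27), the compared groups alone gave 10 and limma-voom 44, and leaving out a library gave 15 (DjTcf4 RNAi 5 dpa replicate 4) to 43 (DjTcf4 RNAi intact replicate 2). For those that fell in control (41), all alternatives gave 29 to 48, and leaving out a library 29 to 45. The shares of all rows called in these alternatives are not given here. The count of 1 rise was 0 with DjTcf4 RNAi in the compared groups alone, and 0 to 1 in control when a library was left out. The replicate block gave 23 falls with DjTcf4 RNAi and 38 in control, and ended the call of DJKW.10467 in control (adjusted p = 0.0517). Same-numbered libraries correlated at -0.37 to 0.24, above 0.1 in 4 of 14 pairs, so the criterion for pairing by replicate number was not met. A batch shared by only some same-numbered libraries was not tested. Low counts limit the members under 1 CPM at 5 dpa, 7 with DjTcf4 RNAi and 2 in control.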

Other observations

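Outside the DJKW rows, 4 of the 83 rows with a Maker ID and at least 5 CPM in control intact animals met the same criteria.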
